A study of Rattus norvegicus with 12 samples.

Results

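The genes described here encode the mitochondrial respiratory chain, complexes I to V, with the assembly factors and the inhibitor that share their names. They were chosen by gene symbol alone: Nduf for complex I, Sdha to Sdhd for complex II, Uqcr or Cyc1 for complex III, Cox4 to Cox8 for complex IV and Atp5 for complex V. This gave 86 of the 14217 genes that had a probe set of their own, with 42 genes in complex I, 4 in complex II, 8 in complex III, 16 in complex IV and 16 in complex V. Each gene was read from 1 probe set, the one with the highest mean over the 12 arrays. Of the 86 genes, 81 were bright enough to be tested, and the 5 that were not are all restricted isoforms of complex IV. The genes Atp5mc1, Atp5mc2, Cox7a2, Ndufa10, Ndufs5 and Uqcrb were named only by probe sets that also name a near copy, and they are not analysed here.

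The samples were renal cortex from kidney grafts in male rats, hybridised to 12 Affymetrix 3′ expression arrays. Every recipient was wild type, with 6 wild-type grafts and 6 grafts deficient in MRP2 (ABCC2-/-). MRP2 is the product of Abcc2, a pump that exports organic anions through the apical membrane of proximal tubule cells, and the study asked what its loss in the kidney alone does to a graft. Strain, age, time after transplantation and whether grafts came from separate donors are not given in the sources used here, so all p-values rest on the spread among these samples, which may be technical. Precision was limited by having 6 arrays of each genotype.

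The respiratory chain sits in the inner mitochondrial membrane. Complexes I and II pass electrons from NADH and succinate to ubiquinone, complex III passes them on to cytochrome c, and complex IV hands them to oxygen. Complexes I, III and IV pump protons, and complex V, the ATP synthase, uses the returning protons to make ATP. Most subunits are encoded in the nucleus, and a few core subunits of complexes I, III, IV and V are encoded in mitochondrial DNA. The renal cortex is rich in mitochondria, since its proximal tubule reabsorbs solutes by active transport.

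Signals are linear intensities as deposited, scaled within each array, and have no absolute unit, so levels were compared between arrays and never between genes. A difference is log2(deficient) minus log2(wild type) from a limma fit, with its standard error (SE), and a gene was called at an adjusted p under 0.05 over 18625 tested probe sets. Abcc2 followed the labels: its signal was 0.787 to 0.987 in wild-type grafts and 0.0387 to 0.213 in deficient grafts (log2 difference -2.69, SE 0.22, adjusted p = 8.36e-06). In each genotype the arrays were split by the order in which they are listed, the first 3 as array set 1 and the last 3 as array set 2, since the arrays differed that way. The labels give no reason for this split. Array set 1 held wild-type replicates 1, 6 and 9 and deficient replicates 5, 9 and 11, and array set 2 held wild-type replicates 4, 7 and 8 and deficient replicates 3, 10 and 14. The ratio of the 3′ to the 5′ control probe set of Gapdh, a measure of how complete the labelled RNA is, was 1.28 to 1.36 in the 3 deficient arrays of set 2 and 1.64 to 1.93 in the other arrays. The highest signal of any probe set on an array was 88.7 to 109.1 in set 1 and 110.8 to 152.7 in set 2. Of the markers, proximal tubule genes, 12 of 12 tested, summed to 314.6 to 380.6 in wild-type and 306.4 to 334.3 in deficient grafts, while the 9 muscle genes, none bright enough to test, summed to at most 0.589 and 0.723. In bulk tissue fewer cells of a type and less RNA per cell cannot be told apart.

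No respiratory chain gene passed the threshold between the genotypes over all 12 arrays. The count was 0 of 81, where 0.0215% of all tested probe sets were called, and the lowest adjusted p among the 81 genes was 0.606. At an unadjusted p under 0.05 there were 3 genes, Ndufaf5, Atp5me and Sdhd, each with the higher mean in deficient grafts, while 7.98% of all tested probe sets were under 0.05, 3.35% with the higher mean in deficient grafts. By sign alone, 75 of 81 log2 differences were above 0, against 41.4% of all tested genes. Centring each array on its median left 60 of 81 above 0 against 29.7% of genes, and quantile normalization left 62 against 44.4%. The median log2 difference of the 81 genes was 0.11, and that of all tested genes was -0.041. The SE of a single gene's difference had a median of 0.11. In no gene did the 6 wild-type and 6 deficient arrays fall apart without overlap, which happened for 0.435% of all tested probe sets.

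**Figure D1:**
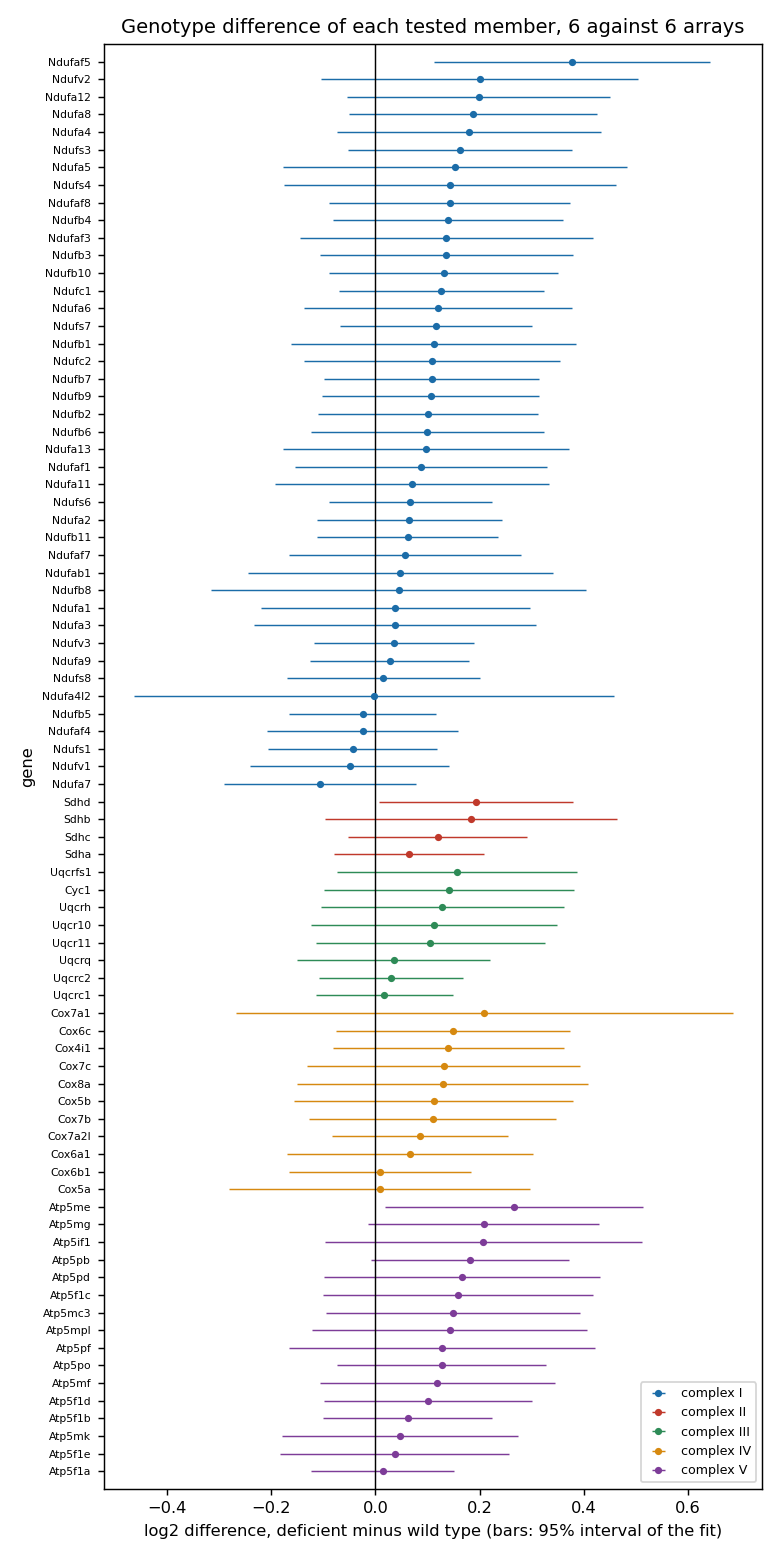
Log2 difference between deficient and wild-type grafts (x axis) for each tested gene (y axis), grouped by complex in colours, with the 95% interval of the limma fit from 6 against 6 arrays. Most points lie to the right of 0, the intervals of all genes but Ndufaf5, Atp5me and Sdhd cross it, and no gene passed an adjusted p of 0.05.

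The 5 complexes lay close together. The median log2 difference was 0.10 in complex I (36 of 42 genes above 0), 0.15 in complex II (4 of 4), 0.11 in complex III (8 of 8), 0.11 in complex IV (11 of 11 tested) and 0.14 in complex V (16 of 16). With each array centred on its median these became 0.044 (29 of 42), 0.095 (4 of 4), 0.053 (5 of 8), 0.055 (9 of 11) and 0.079 (13 of 16). Under quantile normalization they were 0.069 (34 of 42), 0.080 (3 of 4), 0.012 (4 of 8), 0.028 (9 of 11) and 0.053 (12 of 16), so the order of the complexes depended on the scaling. Within the complexes the roles spread more widely than the complexes did. In complex I the 6 core subunits, most of which carry the flavin or iron-sulfur clusters, had a median of 0.066. The 28 accessory subunits had 0.10 and the 6 assembly factors 0.11. In complex III the 2 core proteins had a median of 0.024 and the 2 electron carriers 0.15. In complex V the 5 genes of the F1 head and shaft had a median of 0.062, the 4 genes of the peripheral stalk 0.15 and the 6 genes of the membrane part 0.15. The medians of the complex III core proteins (-0.033 after median centring, -0.020 under quantile normalization) and of the F1 genes (-0.063 under quantile normalization) lay on the other side of 0 when scaled otherwise. No difference between roles was tested.

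Complex I oxidises NADH and is the largest of the 5. Ndufaf5, an assembly factor that modifies a core subunit, had signals of 0.769, 0.888 and 1.19 (lowest, median and highest) in wild-type grafts and 0.954, 1.25 and 1.31 in deficient grafts. The groups overlapped, and its log2 difference of 0.38 (SE 0.13, adjusted p = 0.606) was the largest of the 81. Ndufa12, an accessory subunit of the matrix arm, ran from 24.1 to 31.3 (median 27.5) in wild-type and from 24.4 to 38.8 (median 32.1) in deficient grafts. Ndufa8, an accessory subunit at the intermembrane face, ran from 11.3 to 13.3 (median 12.1) and from 10.8 to 17.4 (median 14.0). For both genes the deficient arrays held the lowest or nearly the lowest value as well as the highest. Their log2 differences were 0.20 (SE 0.12) and 0.19 (SE 0.11), each with an adjusted p of 0.637.

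The 6 genes with a difference below 0 all belong to complex I by symbol. They were Ndufa7 (-0.11), Ndufv1 (-0.050), Ndufs1 (-0.044), Ndufaf4 (-0.025), Ndufb5 (-0.024) and Ndufa4l2 (-0.0026), all as log2 differences with adjusted p from 0.684 to 0.998. Another, dimmer probe set of Ndufa7 gave 0.041 (SE 0.12). Ndufv1 binds NADH and the flavin, and Ndufs1 is the largest iron-sulfur subunit of the same arm. Ndufs1 had 17.6 to 20.9 (median 18.9) in wild-type and 16.8 to 20.1 (median 18.5) in deficient grafts, and the groups overlapped over most of their range.

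Complex II is the one complex with every subunit encoded in the nucleus, and it is shared with the citric acid cycle. Sdhd, a membrane anchor, had 26.3, 28.4 and 30.8 (lowest, median and highest) in wild-type and 28.8, 31.6 and 39.9 in deficient grafts. The groups overlapped between 28.8 and 30.8, and the log2 difference was 0.19 (SE 0.088, unadjusted p = 0.0438, adjusted p = 0.614). The other Sdhd probe set gave 0.26 (SE 0.079, unadjusted p = 0.0044). Sdhc, the other anchor, had 32.3 to 40.9 and 34.9 to 43.8, a log2 difference of 0.12 (SE 0.081). Sdhb, the iron-sulfur subunit, ran from 28.3 to 38.7 and from 29.5 to 47.1 (0.18, SE 0.13). Sdha, the flavoprotein that oxidises succinate, had the smallest difference of the 4, with 34.5 to 39.5 in wild-type and 35.9 to 41.1 in deficient grafts (0.065, SE 0.068, adjusted p = 0.742).

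Complex III moves electrons through cytochrome b, the Rieske protein and cytochrome c1. Uqcrfs1, the Rieske iron-sulfur protein, had 29.0, 32.2 and 37.2 in wild-type grafts and 30.1, 36.5 and 46.0 in deficient grafts (log2 difference 0.16, SE 0.11, adjusted p = 0.649). Cyc1, cytochrome c1, had 23.7, 26.8 and 30.6 against 23.4, 30.2 and 36.6 (0.14, SE 0.11). Uqcrh, the hinge protein that binds cytochrome c1, had 31.2, 34.5 and 41.8 against 31.4, 37.4 and 46.7 (0.13, SE 0.11). In each of these 3 genes the lowest values of the genotypes nearly coincided and the deficient arrays reached higher. The core proteins Uqcrc1 and Uqcrc2, which form the matrix part of the complex and carry no electrons, differed by 0.017 (SE 0.062) and 0.030 (SE 0.066). A second, dimmer probe set of Uqcrc2 gave 0.40 (SE 0.13, unadjusted p = 0.0068), so the probe sets of this gene gave unlike values.

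Complex IV, cytochrome c oxidase, surrounds its mitochondrially encoded core with small nuclear subunits, several of which exist as a broadly expressed isoform and an isoform of muscle, lung or testis. Cox4i1, the broadly expressed form of subunit 4, had 47.6, 51.9 and 68.4 in wild-type and 51.0, 58.5 and 68.0 in deficient grafts (log2 difference 0.14, SE 0.10, adjusted p = 0.665). Cox6c had 45.5, 47.8 and 60.6 against 47.3, 53.5 and 65.6 (0.15, SE 0.11). In both genes the highest wild-type value came from replicate 4 alone. Cox6a1 (0.066, SE 0.11) and Cox8a (0.13, SE 0.13), the broadly expressed forms of subunits 6a and 8, overlapped likewise between genotypes. Cox7a2l, a relative of subunit 7a that joins complexes III and IV into supercomplexes, had 10.2 to 10.9 and 10.1 to 12.8 (0.085, SE 0.080, adjusted p = 0.716).

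The restricted isoforms were at the bottom of the signal range. Cox4i2, known from lung, had 0.0684 to 0.212 in wild-type and 0.111 to 0.258 in deficient grafts. Cox6a2, the heart and muscle form, had 0.01, the minimum in the deposited values, to 0.0793 and 0.0159 to 0.133. Cox8b, another muscle form, had 0.0379 to 0.288 and 0.0219 to 0.197. Together with Cox6b2 and Cox7b2 these genes were too dim to test, with no value above 0.288. Cox7a1, the heart and muscle form of subunit 7a, was the one restricted isoform tested, at 0.213 to 0.428 and 0.218 to 0.512 (log2 difference 0.21, SE 0.23). The related pair Ndufa4 and Ndufa4l2, of which Ndufa4 is now counted as a subunit of complex IV and Ndufa4l2 is known as a hypoxia-induced relative, showed no difference that passed. Ndufa4 had 39.5 to 56.8 and 42.7 to 62.2 (0.18, SE 0.12), and Ndufa4l2 stayed between 0.179 and 0.434 on all arrays (-0.0026, SE 0.22).

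Complex V had the gene with the second-largest difference. Atp5me, a small subunit of the membrane part where synthase dimers meet, had 17.0, 19.8 and 25.3 in wild-type and 19.9, 24.0 and 32.5 in deficient grafts (log2 difference 0.27, SE 0.12, unadjusted p = 0.0365, adjusted p = 0.614). Atp5pb, the stalk subunit b, had 38.1, 40.9 and 45.7 against 40.6, 47.1 and 56.0 (0.18, SE 0.090, adjusted p = 0.627). Atp5mg, another small membrane subunit, had 31.7, 37.5 and 43.1 against 36.0, 43.2 and 49.4 (0.21, SE 0.10, adjusted p = 0.628). All 3 genes overlapped between the genotypes. Atp5mc3, a gene of the rotor ring, had 43.6 to 67.1 and 47.1 to 68.1 (0.15, SE 0.12). Atp5if1, the inhibitor that stops the synthase from running backwards and splitting ATP, had 12.9, 15.3 and 17.3 against 13.2, 18.7 and 22.7 (0.21, SE 0.14, adjusted p = 0.649). Other, dimmer probe sets of Atp5if1 gave 0.31 (SE 0.22) and -0.16 (SE 0.19). Atp5f1a, subunit alpha of the F1 head, had the smallest log2 difference of complex V, 0.014 (SE 0.065).

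Array by array, the 5 complexes moved together. The deviation of a gene in an array is its log2 signal minus its mean over the 12 arrays, and it was averaged over the 81 genes. This mean was between -0.16 and -0.10 in the 6 arrays of set 1, of either genotype. In set 2 the wild-type arrays had 0.10 (replicate 4), 0.038 (replicate 7) and -0.033 (replicate 8), and the deficient arrays had 0.28, 0.18 and 0.22 (replicates 3, 10 and 14). The deficient arrays of set 2 were thus the highest of all, and those of set 1 (-0.16 to -0.10) spanned the range of the wild-type arrays of set 1 (-0.15 to -0.13). In deficient replicates 3, 10 and 14 there were 79, 74 and 72 of 81 genes above their own mean, against 49.5%, 43.9% and 35.7% of all tested genes. In the arrays of set 1 it was 9 to 13 of 81, against 52.4% to 66.7% of all tested genes. The SD over the 6 arrays of a genotype was 0.104 in wild-type and 0.197 in deficient grafts. Within 1 array the mean deviations of the 5 complexes spanned a range of 0.030 (deficient replicate 5) to 0.17 (wild-type replicate 4). In wild-type replicate 4 complex IV stood 0.12 above the mean of all 81 genes.

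**Figure D2:**
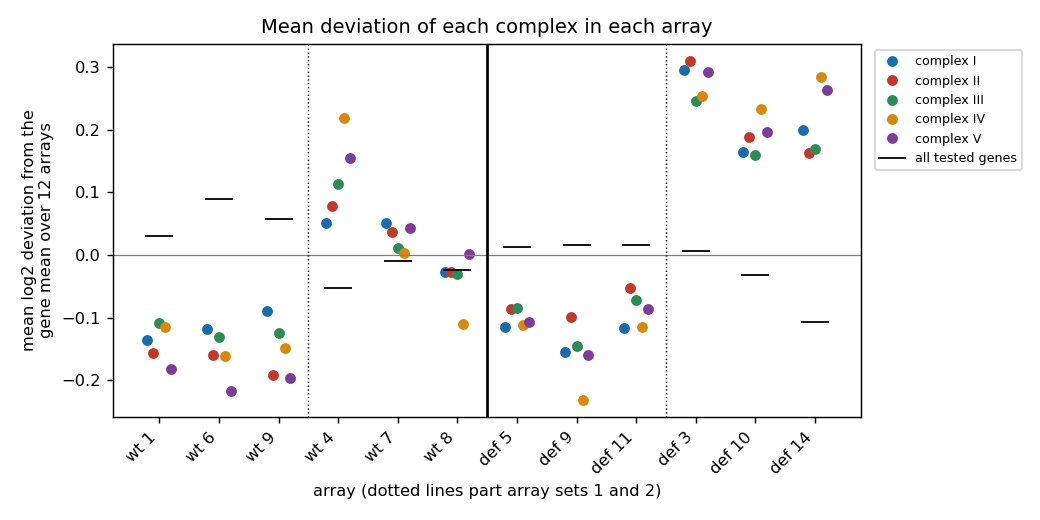
Mean log2 deviation of the tested genes of each complex from their mean over 12 arrays (y axis) in each array (x axis), with the mean over all tested genes as a bar; wt is a wild-type and def a deficient graft. The 6 arrays of array set 1 lie below 0 for all 5 complexes, and deficient replicates 3, 10 and 14 lie highest.

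The difference between the array sets was larger than that between the genotypes. The sets were formed because the arrays were seen to differ that way. Counts and p-values between the sets therefore describe the split and are no independent test of it. With genotype in the model, 63 of 81 genes differed between the array sets, where 30.3% of all tested probe sets did. Of these, 60 rose in set 2, against 11.3% of probe sets, and 3 fell, against 19.0% of probe sets. The median log2 difference, set 2 minus set 1, was 0.32 over the 81 genes and -0.091 over all tested genes. By complex it was 0.30 in complex I, 0.21 in complex II, 0.33 in complex III, 0.32 in complex IV and 0.32 in complex V. In 48 genes all 6 arrays of set 2 lay above all 6 of set 1, which happened for 4.93% of tested probe sets. The Gapdh ratio was 1.66 to 1.93 in set 1, 1.64 to 1.88 in the wild-type arrays of set 2 and 1.28 to 1.36 in its deficient arrays. Of 8 leukocyte markers 6 were tested, all 6 had a higher mean in set 2 (median 0.35, 3 called), and their sum with the other 2 was 55.6 to 80.4 in wild-type and 54.4 to 92.0 in deficient grafts. Markers of other cells were called lower in set 2: 3 of 12 proximal tubule genes, with 2 higher, among them Cubn (-0.31, adjusted p = 4.75e-04), 3 of 4 podocyte genes, among them Podxl (-0.34), 2 of 5 endothelial genes, among them Tek (-0.27), 2 of 6 of the thick ascending limb, 1 of 4 of intercalated cells, Slc26a4 (-0.36), and 1 of 2 of the distal convoluted tubule, Slc12a3 (-0.46). The part of RNA quality and of cell makeup in the set difference was not tested.

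Atp5pf, coupling factor 6 of the synthase stalk, had the lowest p. In wild-type grafts it was 29.8 to 30.3 in set 1 and 39.4 to 44.4 in set 2, and in deficient grafts it was 31.0 to 32.7 and 44.1 to 48.9. The sets lay apart in both genotypes, with a log2 difference of 0.50 (adjusted p = 9.44e-06). Ndufa5, an accessory subunit of complex I, rose most, by 0.52 (adjusted p = 1.57e-04). Its wild-type arrays had 3.27 to 3.95 in set 1 and 4.45 to 5.21 in set 2. Sdhb rose by 0.46 and Cox8a by 0.45. The 3 genes that fell in set 2 were the complex I genes Ndufv1 (-0.25, adjusted p = 0.00155), Ndufs1 (-0.19, adjusted p = 0.00326) and Ndufaf4 (-0.18, adjusted p = 0.0404). Ndufs1 was 19.9 to 20.9 and 17.6 to 17.9 in the wild-type arrays of sets 1 and 2, and 19.2 to 20.1 and 16.8 to 17.9 in the deficient arrays, with no overlap of the sets. Ndufv1 and Ndufs1 encode neighbours in the NADH-oxidising arm, while Ndufv2, of the same arm, rose by 0.42 (adjusted p = 0.0022). The core proteins of complex III did not pass (Uqcrc1 -0.062, Uqcrc2 -0.063), nor did Atp5f1a (-0.026) or Sdha.

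**Figure D3:**
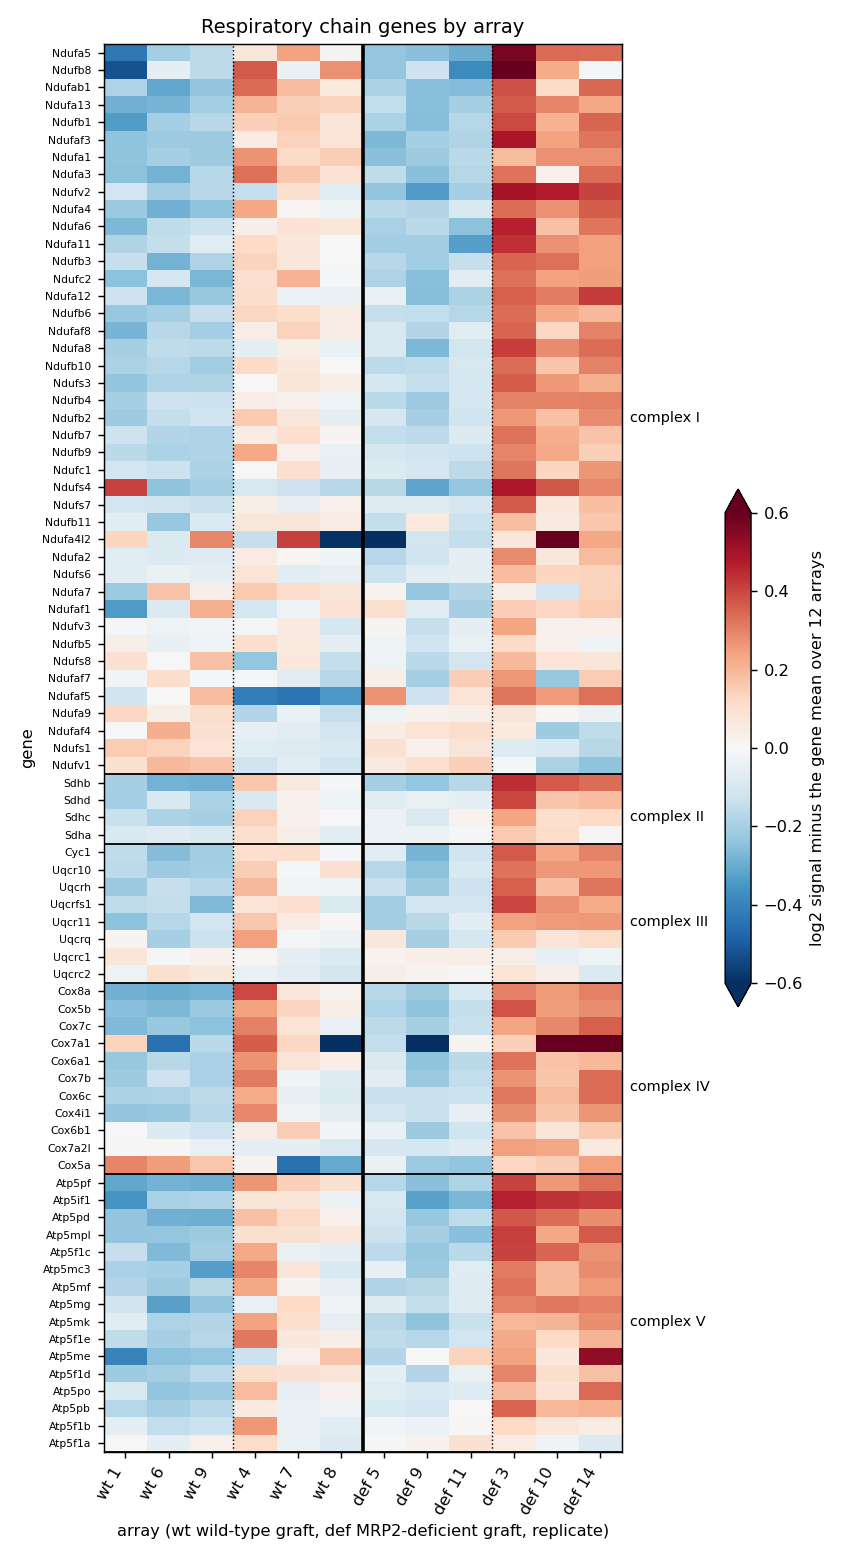
Log2 signal of each tested gene minus its mean over 12 arrays (colour, blue low and red high), genes in rows by complex and arrays in columns by genotype and array set. Array set 1 is blue in both genotypes for most rows. Array set 2 is red for most rows in wild-type replicates 4 and 7 and in the deficient grafts, where it is deepest. In wild-type replicate 8 only 30 of 81 genes lie above their mean. Ndufv1, Ndufs1 and Ndufaf4 run the other way between the sets.

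The set difference was found in each genotype taken alone. Of the 81 genes 67 were higher in set 2 among wild-type grafts (median 0.23), 75 among deficient grafts (median 0.40) and 66 in both, against 37.2%, 40.5% and 23.2% of all tested genes. The difference was larger in deficient than in wild-type grafts for 74 genes, against 54.8% of all tested genes. The interaction of genotype and array set, which tests this gene by gene, passed for 2 of 81 genes, Ndufv2 and Cox5a, where 2.54% of tested probe sets passed.

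**Figure D4:**
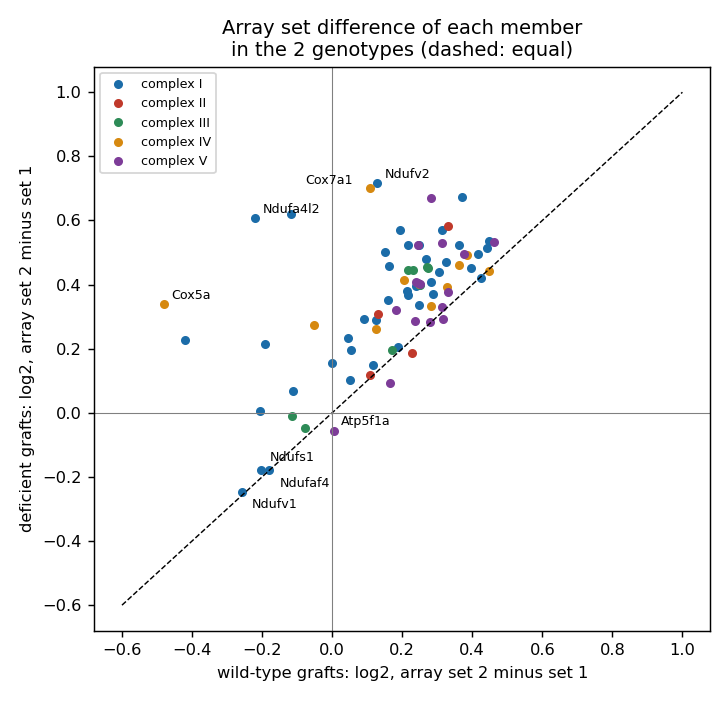
Log2 difference of array set 2 minus set 1 in wild-type grafts (x axis) against the same in deficient grafts (y axis), 1 point per tested gene coloured by complex, with equal values on the dashed line. Most points lie right of 0 and above the line, Ndufv1, Ndufs1 and Ndufaf4 lie close to it below 0, and Cox5a and Ndufv2, which passed the interaction test, lie above it.

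Within array set 1, where the Gapdh ratios of the 3 deficient and 3 wild-type arrays overlapped, no respiratory chain gene was called. The count was 0 of 81, where 0.0215% of probe sets were, 6 had an unadjusted p under 0.05 against 11.5%, and the median log2 difference was 0.031. By complex it was 0.011 in complex I, 0.082 in complex II, 0.023 in complex III, 0.033 in complex IV and 0.095 in complex V, with 57 of 81 genes above 0 against 37.4% of all tested genes.

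Within array set 2 there were 9 of 81 genes called, all higher in deficient grafts, where 6.39% of probe sets were called and 3.68% were called higher. The 9 were 6 genes of complex I, 1 of complex II and 2 of complex V. Ndufv2, a core subunit with an iron-sulfur cluster, was 18.7 to 21.9 in the 3 wild-type arrays and 27.2 to 29.1 in the 3 deficient arrays (log2 difference 0.49, adjusted p = 0.00565). Ndufaf5 was 0.769 to 0.820 and 1.24 to 1.31 (0.70, adjusted p = 0.00764). Ndufs4, an accessory subunit whose loss causes Leigh syndrome in humans, was 2.54 to 2.67 and 3.49 to 4.01 (0.51, adjusted p = 0.00934). In set 1 Ndufs4 was 2.42 to 3.79 in wild-type and 2.30 to 2.55 in deficient arrays. Ndufv2, Ndufaf5 and Ndufs4 were named because they were called in these same arrays. That their 3 wild-type and 3 deficient arrays did not overlap is therefore no further support. The share of all probe sets without overlap within this set was not counted. The inhibitor Atp5if1 was 16.1 to 17.3 and 22.0 to 22.7 (0.40, adjusted p = 0.00953). The other 5 were Ndufa8 (0.36), Ndufa12 (0.35), Sdhb (0.31), Ndufb4 (0.29) and Atp5mg (0.29), with adjusted p from 0.0187 to 0.0444. The medians of the complexes lay between 0.18 and 0.19, and 76 of 81 genes were above 0 against 47.0% of all tested genes. In this set the Gapdh ratio of the 3 deficient arrays did not overlap that of the wild-type arrays, so genotype and RNA quality cannot be told apart there. Some cell type markers were called in the same comparison. Of 2 tested distal convoluted tubule genes, Slc12a3 (-0.70) was lower in deficient grafts, while Calb1 (0.20) was not called. Of 12 proximal tubule genes, 1 was called, Slc5a2 (-0.41). Of 4 intercalated cell genes, Slc26a4 (-0.45) and Slc4a1 (-0.57) were called lower, and Slc4a1 is also on the erythrocyte list. Of 6 thick ascending limb genes, 1 was called, Cldn10 (0.34), which was higher. No tested marker of collecting duct principal cells, podocytes, endothelium, leukocytes or fat was called. The part of cell makeup in the result was not tested.

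Ndufv2 and Cox5a passed the test of the interaction, 2 of 81 genes, where 2.54% of tested probe sets passed. Ndufv2 was 17.7 to 18.9 in wild-type and 16.2 to 17.9 in deficient arrays of set 1, so that its genotype difference was -0.093 in set 1 and 0.49 in set 2 (interaction 0.59, adjusted p = 0.0052). Cox5a, a nuclear subunit of complex IV on its matrix side, had differences of -0.40 in set 1 and 0.42 in set 2 (interaction 0.82, adjusted p = 0.0134). Its wild-type arrays went from 1.92 to 2.10 in set 1 to 1.26 to 1.73 in set 2, and its deficient arrays from 1.46 to 1.67 to 1.87 to 2.04. Its difference over all 12 arrays was 0.0078. The Cox5a values rest on this 1 dim probe set, since another that also names a near copy was left out. Whether it reads the main Cox5a transcript was not tested.

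Leaving out arrays and adding covariates moved these values. Without deficient replicates 3, 10 and 14, the arrays with the low Gapdh ratio, 16 of 81 log2 differences were above 0, against 49.0% of all tested genes, and the median was -0.082 (-0.078 in complex I, 0.016 in II, -0.076 in III, -0.099 in IV and -0.061 in V). This leaves deficient arrays of set 1 alone against wild-type arrays of both sets, and wild-type set 2 lay above set 1 by a median of 0.23, so it is not a comparison of genotypes within like arrays. That comparison, within set 1, had a median of 0.031 with 57 of 81 genes above 0. With the Gapdh ratio as a covariate 29 of 81 were above 0 against 43.6% of genes, with a median of -0.017. With the same ratio of the beta-actin control probe sets instead, 58 of 81 were above 0 against 39.0% of genes, with a median of 0.028. The beta-actin ratio was 4.48 to 6.39 in deficient arrays of set 2, 8.56 to 9.57 in those of set 1 and 7.06 to 9.79 in wild-type arrays. With the array set as a block 38 genes had an unadjusted p under 0.05 and the higher mean in deficient grafts, against 7.4% of probe sets, and 0 passed after adjustment (lowest adjusted p 0.0689), against 0.601% of probe sets. With the block and the Gapdh ratio together the median was 0.076, 65 genes were above 0 against 35.5% of genes, and 11 had an unadjusted p under 0.05, all with the higher mean in deficient grafts, against 2.27% of probe sets in that direction.

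Genes of other mitochondrial functions were read from lists set by known role, and none of their members passed over the 12 arrays without the array set in the model. With the array set as a block Idh3a (-0.40, adjusted p = 0.0386) was called lower and Slc25a4 (0.25, adjusted p = 0.0451) higher in deficient grafts. Among 37 tested assembly factors outside the symbol rule the median log2 difference was -0.0032 with 18 above 0, and set 2 minus set 1 had a median of 0.065, with 11 genes up and 9 down. For comparison, 41.4% of all tested genes were above 0 between genotypes, and 11.3% of tested probe sets were called higher and 19.0% lower in set 2. Coa5, a factor for complex IV assembly, had 14.5 to 21.1 in wild-type and 8.11 to 19.4 in deficient grafts (-0.48, adjusted p = 0.614). Within array set 2 it fell by 0.83 (adjusted p = 2.82e-04), against the direction of the complex IV subunits. Sdhaf2, which attaches the flavin to Sdha, had a log2 difference of -0.19. Of 15 citric acid cycle genes 7 were above 0 (median -0.0077, and -0.055 for set 2 minus set 1). Idh3a, the catalytic subunit of NAD-dependent isocitrate dehydrogenase, had 6.81 to 7.85 in wild-type and 4.81 to 6.88 in deficient grafts, overlapping at the edge (-0.40, SE 0.099, adjusted p = 0.56), and Pdhb had a log2 difference of 0.13.

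Of 17 genes for mobile carriers and quinone supply, 9 were above 0 (median 0.0022). Coq10a, a quinone-binding protein, had a log2 difference of -0.25 and Coq3, a methyltransferase of ubiquinone synthesis, 0.27. Of 14 tested genes for exchange of ATP, phosphate and metabolites, 9 were above 0 (median 0.052). Slc25a4, an ADP/ATP carrier, had a log2 difference of 0.25, and Slc25a10, the dicarboxylate carrier, one of -0.36. Of 18 tested genes for mitochondrial biogenesis and transcription, 5 were above 0 (median -0.093). Ppargc1a, a coactivator of genes for mitochondria, had 3.76 to 5.26 in wild-type and 2.62 to 4.33 in deficient grafts (-0.37), and Polrmt, the mitochondrial RNA polymerase, a log2 difference of -0.36. On this list 8 genes fell and 1 rose in set 2 relative to set 1, and the median was -0.24, where 19.0% of all probe sets were called lower and all tested genes had a median of -0.091. Scaling turned the sign of 3 of these genotype medians: that of the assembly factors was 0.041 under quantile normalization, that of the carriers and quinone list -0.054 and that of the exchange list -0.0048 after median centring. The mitochondrially encoded COX1 and COX2, the catalytic core of complex IV, each had a log2 difference of 0.16 between genotypes. They rose by 0.42 and 0.44 in set 2.

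Outside respiration, the 40 tested cytosolic ribosomal protein genes had a median log2 difference of 0.13 between genotypes, with 39 above 0, and of 0.32 between the array sets, with 34 called higher. The 73 mitochondrial ribosomal protein genes had 0.091 (61 above 0) and 0.21 (40 called higher, 6 lower), and the 37 proteasome genes 0.070 (29 above 0) and 0.13. Of all tested genes 41.4% were above 0 between genotypes. Of all tested probe sets 11.3% were called higher and 19.0% lower in set 2. Within these lists the lowest p belonged to Mrpl17 (0.21) and Mrps28 (0.21), Rps4y2 (0.36) and Rpsa (0.18), and Psma1 (0.25) and Psmd6 (0.25), and none passed after adjustment. Of the 12 proximal tubule markers 11 were below 0, with a median of -0.065, where all tested genes had a median of -0.041.

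**Figure D5:**
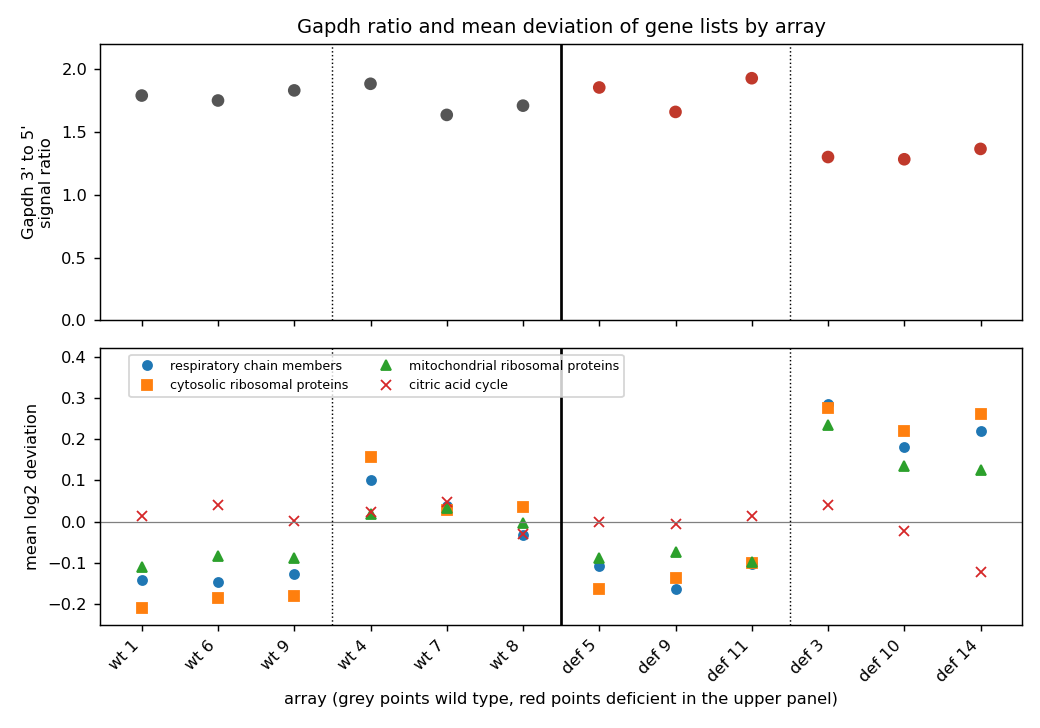
Upper panel, the ratio of the 3′ to the 5′ Gapdh control probe set in each array; lower panel, the mean log2 deviation of the respiratory chain genes and of 3 other lists in the same arrays. The 3 deficient arrays of array set 2 have ratios of 1.28 to 1.36 and the highest values of the respiratory chain and of both ribosomal lists, while the citric acid cycle genes lie between -0.12 and 0.048 in all arrays.

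The promoters of these genes were compared as sequence, using RefSeq windows on the rat build GRCr8 of 250 bases before and 50 bases after the start of the gene. A window was found for 78 of the 86 genes, and motifs were searched on both strands. NRF1 is a factor known for driving respiratory genes, and its motif, GCGCA followed directly by its reverse complement TGCGC and so the same on both strands, stood in 5 of 78 windows (6.41%) against 0.852% of 33469 rat promoters. The holders were Ndufaf5, Ndufaf4, Ndufa11, Atp5po and Atp5me, which included the genes with the largest and the second-largest genotype difference. The ETS core CCGGAAG, bound by GABP, stood in 22 windows (28.2% against 8.75%), and YY1's AAGATGGCG in 11 (14.1% against 1.73%). The ERR motif TCAAGGTCA was held by 2 windows, of Sdhd and Atp5mc3 (2.56% against 0.433%). GGGGCGGGG, read by SP1, was in 4 windows (5.13% against 9.73%), CCAAT in 27 (34.6% against 37.5%) and TATAAA in 8 (10.3% against 14.2%). These are matches of letters, which show neither binding nor a cause of any value here.

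The 100 bases before the start of 4 of the 5 holders of the NRF1 motif are shown, since Ndufaf5 and Atp5me had the largest genotype differences and Ndufa11 and Atp5po are holders that had neither. Capitals mark the motif, which in Ndufa11 occurs as an overlapping pair, each sequence reads 5′ to 3′ on the strand of its gene, and the motif begins 15, 76, 97 and 59 bases before the start, in the order shown, and the overlapping match in Ndufa11 begins at 91. They lie at chr3:147961512-147961611 (plus strand), chr14:1464760-1464859 (plus), chr9:1637514-1637613 (plus) and chr11:44657484-44657583 (minus).
Ndufaf5: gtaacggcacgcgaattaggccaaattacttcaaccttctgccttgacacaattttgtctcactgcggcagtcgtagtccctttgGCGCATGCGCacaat
Atp5me: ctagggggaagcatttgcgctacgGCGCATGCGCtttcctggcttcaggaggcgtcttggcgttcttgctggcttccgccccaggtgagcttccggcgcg
Ndufa11: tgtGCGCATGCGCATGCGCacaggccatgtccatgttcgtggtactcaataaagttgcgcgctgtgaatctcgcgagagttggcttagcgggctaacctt
Atp5po: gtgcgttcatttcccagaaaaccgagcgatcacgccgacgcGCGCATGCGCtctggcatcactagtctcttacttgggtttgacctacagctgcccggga
Their log2 genotype differences were 0.38 for Ndufaf5, 0.27 for Atp5me, 0.071 for Ndufa11 and 0.13 for Atp5po, and that of Ndufaf4, the other holder, was -0.025, none of which passed the threshold. Another, dimmer probe set of Atp5po gave -0.16 (SE 0.23).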

How the data were processed

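Renal cortex RNA, labelled with biotin per the labels' protocols, was hybridised to 12 arrays, 1 per graft. The authors deposited probe set intensity values on a linear scale for 31099 probe sets, and the submitters' processing notes name MAS5 and GCOS, with no version. Depth does not apply to arrays. Values at the deposited minimum of 0.01 made up 3.56% of all values.

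The 57 control probe sets were dropped. Values under the pooled 20th percentile (0.0694) were raised to it before log2, which understates changes of dim genes, and the 18625 probe sets with a mean log2 at or above the 40th percentile were tested. Genotypes were compared with limma 3.58.1 (R 4.3.3), with a mean-variance trend, genotype as the factor and Benjamini-Hochberg adjustment over all tested probe sets, and it was tested on simulated data. Probe sets were named from the platform annotation (20826 with 1 symbol, 436 with several, left unnamed, and 9780 unlisted), with 20758 symbols updated through Entrez to GRCr8. The Cox6c pseudogene was left out, and 7 probe sets that name a member and another gene were not used.

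Named genes were the 3 lowest p in each complex, those past the threshold, the isoform pairs, and 2 per list. Those named for the array sets and for promoter motifs, and Ndufa11, Atp5po and other single examples, were picked after their values were seen. The members and lists were chosen with earlier results of these data known. Alternatives changed the floor, filter, scaling, variance model, array weights, probe set per gene, covariates and arrays.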

Additional observations from a re-analysis of the deposited data

Results flagged for a closer look

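Among 56 groups of 6 arrays checked (the mean deviations of the complexes and the signals of genes picked by the naming rule, in each genotype), 2 had a value whose gap to the nearest other exceeded Dixon's 95% limit, and chance flags about 1 in 20 groups. Both came from wild-type replicate 4: the Cox6c signal was 60.6 where the other 5 wild-type arrays had 45.5 to 50.3, and the Cox4i1 signal was 68.4 where they had 47.6 to 55.1. Both genes encode subunits of complex IV.

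By the interaction test of limma, the genotype difference itself differed between the array sets for 2 of 81 genes. Of all tested probe sets, 2.54% passed that test. For Ndufv2 the difference in set 2 exceeded that in set 1 by 0.59 on the log2 scale (adjusted p = 0.0052). For Cox5a, read from 1 dim probe set, it did so by 0.82 (adjusted p = 0.0134), with opposite signs in the 2 sets. The deficient arrays of set 2 had the lowest Gapdh ratios, 1.28 to 1.36, and the part of that ratio in both results was not tested.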

How the results depend on the processing

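Over the 12 arrays, 4 probe sets were called in the whole table. The count was 0 with values below 1 set to 1, 112 with the array set as a block, 1190 in array set 2 alone and 3 to 5 when each array was left out in turn. Of the respiratory chain genes, 0 were called in all settings except array set 2 alone, which gave 9, and leaving out each array gave 0 to 0. Medians of the log2 differences when each array was left out ran from 0.056 to 0.16 for all 81 genes, 0.043 to 0.14 in complex I, 0.099 to 0.19 in II, 0.063 to 0.16 in III, 0.067 to 0.18 in IV and 0.081 to 0.19 in V. The sign turned with the Gapdh ratio as a covariate, to -0.017 for all, -0.029 in complex I, -0.016 in III, -0.015 in IV and -0.0064 in V. It turned too without deficient replicates 3, 10 and 14, an alternative chosen after seeing the data, to -0.082, -0.078, -0.076, -0.099 and -0.061 in the same order. That alternative sets deficient arrays of set 1 against wild-type arrays of both sets, and within set 1 alone the median was 0.031. The cause of the turn with the Gapdh ratio was not tested. With the beta-actin ratio as the covariate the sign did not turn. The medians were then 0.028 for all, 0.0084 in complex I, 0.070 in II, 0.026 in III, 0.040 in IV and 0.048 in V. The complex II median kept its sign in all 28 alternatives, between 0.016 and 0.19. Of the 81 genes, 16 turned sign when some single array was left out. No paired analysis was possible because the genotypes share only replicate number 9. The isoforms too dim to pass the filter were not tested, so no difference was estimated for them.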
